A study of Mus musculus with 6 samples.

Results

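Rap1gap encodes a GTPase-activating protein that turns off the small GTPase Rap1, and it was examined with 9 other genes of the Rap switch in sorted mouse erythroblasts. The 10 genes were the GTPase-activating protein genes Rap1gap and Sipa1, the GTPase genes Rap1a, Rap1b, Rap2a and Rap2b, and the exchange factor genes Rapgef1, Rapgef3, Rapgef6 and Rasgrp2. All probe sets annotated to 1 of these symbols alone were taken, which gave 23 of the 22626 probe sets tested, or 10 of 12393 genes. The set was chosen by the signal of Rap1gap on these arrays, which was low in mutant samples, so the differences of these genes between the groups are described and not tested. Messenger RNA was measured with 1 Affymetrix array per sample in CD71 positive erythroblasts, the nucleated red cell precursors that carry the transferrin receptor, sorted from bone marrow of FVB/N mice. The 3 mutant samples came from mice expressing a transgene for mutant RPS19, a small ribosomal subunit protein with the change R62W that is studied as a model of Diamond-Blackfan anaemia, and the 3 others came from wild type mice. The sources used here do not give the age of the mice, any treatment or the promoter of the transgene. Whether each sample is a different mouse is not stated either, and p-values below reflect sample-to-sample spread that could be technical.

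Rap proteins are molecular switches that are active when bound to GTP. Exchange factors load them with GTP in response to receptors, cyclic AMP, calcium or diacylglycerol, and GTPase-activating proteins speed up GTP hydrolysis and return them to the inactive state. In blood cells active Rap1 is best known for turning on integrins from the inside of the cell, through talin and its partners, and so for adhesion of lymphocytes, platelets and blood progenitors.

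Rap1gap carried the lowest mutant values relative to wild type among these genes, and its RefSeq promoter windows (GRCm38.p6, 250 bases before to 50 after a transcript start, plus strand) are shown for that reason. RefSeq lists 7 windows for Rap1gap, which overlap into 4 separate places on chromosome 4, and the first window of each place is printed. Capitals mark CCNCNCCC on either strand, the CACC-type motif bound by KLF1, the erythroid Krüppel-like factor, and by related KLF and Sp proteins. Overlapping matches run together.
chr4:137664476-137664775: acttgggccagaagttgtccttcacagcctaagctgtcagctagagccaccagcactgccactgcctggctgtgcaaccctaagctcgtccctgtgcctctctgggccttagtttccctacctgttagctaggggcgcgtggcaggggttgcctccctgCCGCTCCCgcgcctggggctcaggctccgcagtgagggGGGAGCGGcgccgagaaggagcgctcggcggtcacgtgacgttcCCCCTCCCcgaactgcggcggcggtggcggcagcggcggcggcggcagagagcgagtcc
chr4:137681353-137681652: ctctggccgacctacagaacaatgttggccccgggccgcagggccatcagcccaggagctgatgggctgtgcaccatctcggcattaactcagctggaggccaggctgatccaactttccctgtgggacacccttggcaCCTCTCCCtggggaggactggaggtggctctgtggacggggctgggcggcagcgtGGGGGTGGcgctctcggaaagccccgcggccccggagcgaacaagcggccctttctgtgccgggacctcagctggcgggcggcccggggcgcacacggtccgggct
chr4:137707217-137707516: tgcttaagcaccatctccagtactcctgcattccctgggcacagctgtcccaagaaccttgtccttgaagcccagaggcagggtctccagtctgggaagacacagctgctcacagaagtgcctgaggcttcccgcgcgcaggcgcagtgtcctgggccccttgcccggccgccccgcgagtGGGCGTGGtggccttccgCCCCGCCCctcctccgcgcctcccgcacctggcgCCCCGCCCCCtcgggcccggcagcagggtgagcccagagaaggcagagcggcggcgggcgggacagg
chr4:137724211-137724510: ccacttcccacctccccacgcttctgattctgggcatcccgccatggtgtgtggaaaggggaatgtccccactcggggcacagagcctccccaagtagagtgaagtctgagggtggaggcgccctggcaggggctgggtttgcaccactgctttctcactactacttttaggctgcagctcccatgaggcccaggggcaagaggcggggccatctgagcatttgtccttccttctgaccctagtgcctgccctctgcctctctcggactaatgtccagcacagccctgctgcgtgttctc

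The first 3 windows held 3, 2 and 4 matches and the window at chr4:137724211-137724510 held 0. RefSeq windows matched 9 of the 10 genes, and 12 of their 13 separate windows held CCNCNCCC, as did 49.5% of all 32851 mouse windows of the same length. The GATA motif was searched on both strands as AGATAA, with T also allowed as its first letter and G as its last, and was in 0 of the 13 windows and in 29.8% of all windows. Letters G and C made up 60.7% to 80% of the member windows, and their share over all windows is not given here. The motif shares were not compared at equal G and C content, so nothing is read from them. These letters describe the windows only, and the array does not tell which Rap1gap start was used.

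The arrays of the groups differed in more than these genes. The SD of the log2 difference between a pair of arrays over all probe sets was 0.34 to 0.50 among mutant arrays, 0.14 to 0.19 among wild type arrays and 0.38 to 0.43 between the groups. Spiked polyadenylated control RNAs read 11.58 to 13.47 on mutant arrays and 8.74 to 8.77 on wild type arrays (log2). The log2 gap between 3' and 5' probe sets, a measure of RNA integrity and labelling, was 1.58 to 1.88 on mutant and 1.26 to 1.37 on wild type arrays for actin, and 0.25 to 0.31 on mutant and -0.087 to -0.049 on wild type arrays for Gapdh. These ranges did not overlap, so they move with every difference between the groups given below, that of Rap1gap included, and their part was not tested. Mutant replicate 3 read 5.78 for Xist, the RNA of the inactive X chromosome of females, and the other 5 arrays read 11.38 to 12.07. Of 10 listed erythroid marker genes 8 were measured, which include Gata1, Klf1, Epor, Slc4a1, Alas2 and Tfrc. Their mean log2 level was 9.86 to 10.68 on mutant arrays and 10.36 to 10.50 on wild type arrays. Of the 8, 0 were dim, meaning a mean log2 level of 3.57 or less, near background. Tfrc, the gene of the transferrin receptor, read 11.45, 11.99 and 11.96 in mutant samples 1 to 3, against 12.1 in each wild type sample. Its difference was -0.34 (adjusted p = 0.29, limma), and the groups overlapped for the other erythroid markers. The mean of 9 neutrophil granule markers, genes of another marrow lineage, was 9.82 to 11.64 on mutant arrays and 10.83 to 10.97 on wild type arrays. In such sorted bulk samples, fewer cells of a type and less RNA per cell cannot be told apart.

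**Figure D1:**
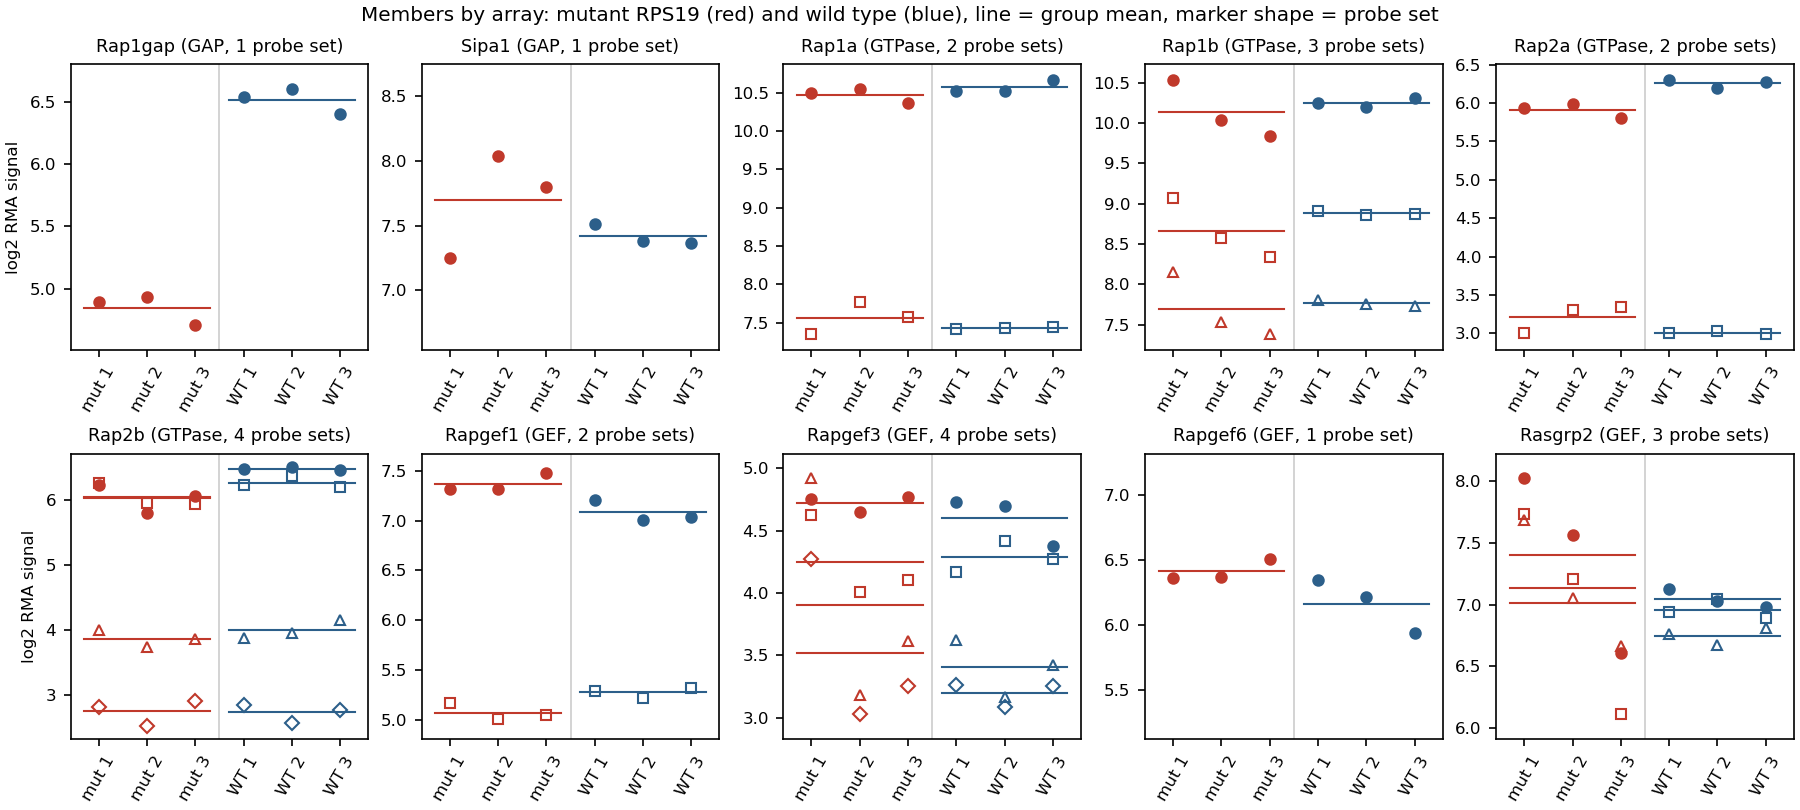
Log2 RMA signal of each member gene on the 3 mutant RPS19 arrays (red, left) and the 3 wild type arrays (blue, right), with 1 marker shape per probe set, filled for the brightest, and lines at group means. Each panel has its own level axis. Rap1gap sits at 4.71 to 4.93 on the mutant arrays, below all wild type values, whereas Rap1b and Rasgrp2 spread widely among the mutant arrays.

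Among the GTPase-activating proteins, Rap1gap was low on every mutant array. Its single probe set read 4.89, 4.93 and 4.71 in mutant samples 1, 2 and 3, against 6.54, 6.60 and 6.40 in wild type samples 1, 2 and 3 (log2). All 3 mutant values lay far below all 3 wild type values, and the spread within each group was small, with means of 4.84 ± 0.12 in mutant and 6.52 ± 0.10 in wild type samples (SD, n = 3 each). The log2 difference was -1.67 ± 0.11 (SE from limma), a wild type to mutant ratio of 3.18. Of all 22626 probe sets 32 had a more negative difference. The mutant values lay under 5.36, the median of all values on the arrays, and the sources used here give no detection calls, so how much Rap1gap signal remained in mutant samples was not measured.

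Sipa1, the other GTPase-activating protein of the group and one that acts on Rap1 in lymphoid and progenitor cells, did not share this pattern. Its signal was 7.25, 8.04 and 7.79 in mutant samples 1 to 3, against 7.51, 7.38 and 7.36 in wild type samples 1 to 3. Mutant samples 2 and 3 read above all wild type samples and mutant sample 1 read below them, so the groups overlapped. The log2 difference was 0.27 (95% confidence interval -0.18 to 0.73), and it was 0.50 without mutant replicate 1 and 0.10 without mutant replicate 2. The mean of 7 B cell markers on the mutant arrays was also highest on array 2 (7.74), then array 3 (6.71) and array 1 (5.92), against 5.91 to 5.93 on wild type arrays, and the part of B cells in the Sipa1 values was not tested.

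The GTPases themselves differed far less than Rap1gap. The brighter Rap1a probe set read 10.49, 10.55 and 10.36 in mutant samples 1 to 3, against 10.52, 10.53 and 10.67 in wild type samples 1 to 3. The groups overlapped, and the log2 difference of -0.11 had a 95% confidence interval of -0.34 to 0.13. The dimmer Rap1a probe set had a difference of the other sign, 0.13 (-0.15 to 0.42), and the mean of both probe sets differed by 0.012.

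Rap1b, the close paralogue of Rap1a and the main Rap protein of platelets, varied among the mutant samples. Its brightest probe set read 10.53, 10.03 and 9.84 in mutant samples 1 to 3, against 10.25, 10.19 and 10.31 in wild type samples 1 to 3. On all 3 Rap1b probe sets mutant sample 1 read above every wild type sample and mutant samples 2 and 3 read below every one. The SD of the 3 probe sets was 0.35 to 0.41 in mutant samples and 0.027 to 0.056 in wild type samples (n = 3 each). Their log2 differences were -0.12, -0.22 and -0.07, and without mutant replicate 1 they were -0.31, -0.42 and -0.30. Without mutant replicate 3 they were 0.029, -0.060 and 0.078, and so 2 of the 3 changed sign.

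Rap2a and Rap2b, related GTPases that act on kinases of the Tnik and Mink1 family, had lower signals in mutant samples on their brightest probe sets. Rap2a read 5.93, 5.99 and 5.80 in mutant samples 1 to 3, against 6.31, 6.19 and 6.27 in wild type samples 1 to 3, with a log2 difference of -0.35 (95% confidence interval -0.57 to -0.12). Rap2b read 6.22, 5.80 and 6.05 in mutant samples 1 to 3, against 6.47, 6.51 and 6.46 in wild type samples 1 to 3, with a difference of -0.45 (-0.74 to -0.17). The groups did not overlap for either of these probe sets, nor for 26.1% of all probe sets. The others were closer to 0, at 0.21 for the second Rap2a probe set and at -0.21, -0.13 and 0.018 for the other Rap2b probe sets. Both the second Rap2a probe set and the dimmest Rap2b probe set were dim by the level of 3.57 given above.

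**Figure D2:**
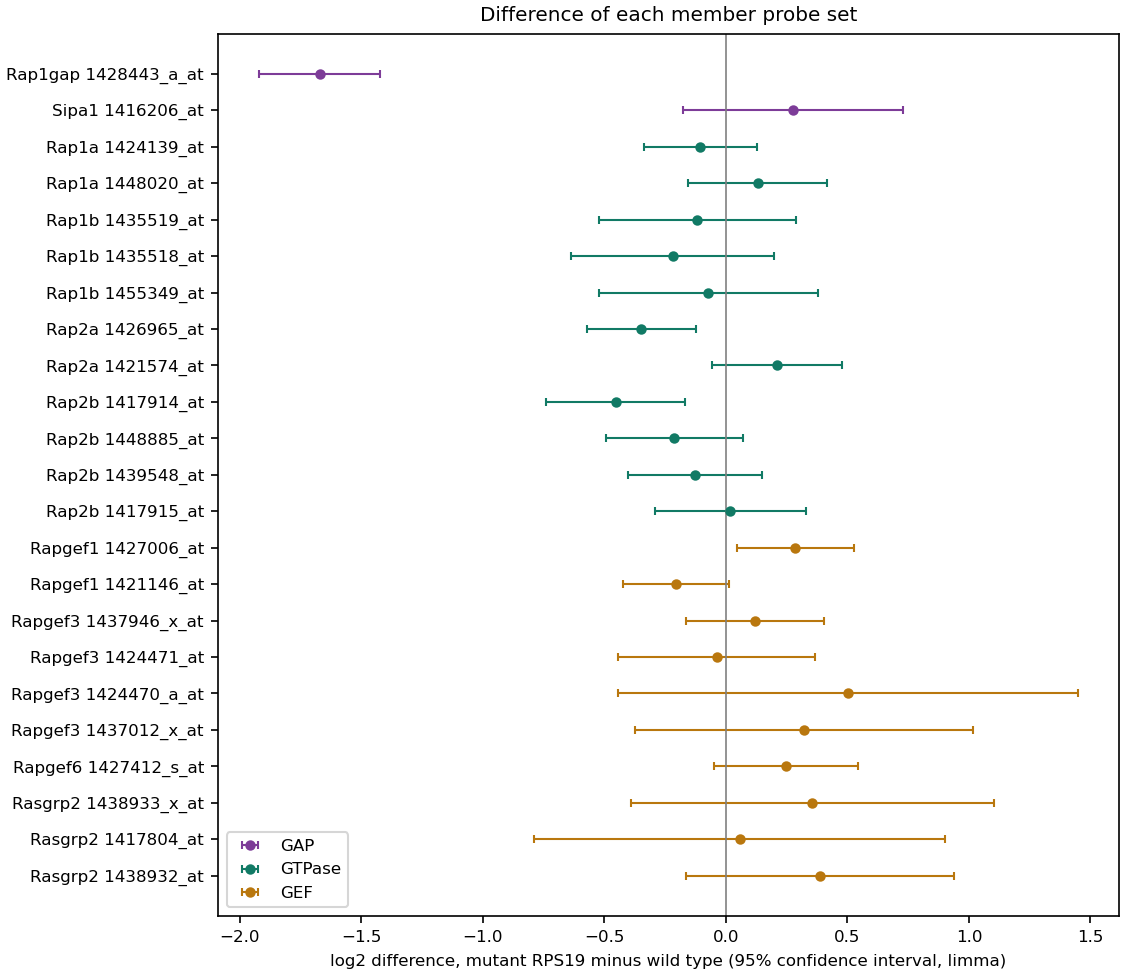
Log2 difference, mutant RPS19 minus wild type, of the 23 member probe sets with its 95% confidence interval from limma, coloured by role (GAP, GTPase-activating protein; GEF, guanine nucleotide exchange factor). Rap1gap lies at -1.67, and the other 22 probe sets lie between -0.45 and 0.50.

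Among the exchange factors, Rapgef1 gave opposite readings on its probe sets. The Rapgef1 protein is recruited to receptors by Crk adaptors. Its brighter probe set read 7.31, 7.32 and 7.48 in mutant samples 1 to 3, against 7.21, 7.01 and 7.04 in wild type samples 1 to 3, a log2 difference of 0.29 (95% confidence interval 0.047 to 0.52). The dimmer Rapgef1 probe set read 5.01 to 5.16 in mutant and 5.22 to 5.32 in wild type samples, a difference of -0.21 (-0.42 to 0.011). Neither probe set had overlapping groups, and their mean differed by 0.040. Rapgef6, an exchange factor with a PDZ domain, was measured by 1 probe set and read 6.36, 6.37 and 6.51 in mutant samples 1 to 3, against 6.34, 6.21 and 5.93 in wild type samples 1 to 3. All mutant values of Rapgef6 lay above all wild type values, though the nearest were almost equal, and the difference was 0.25 (-0.05 to 0.54), or 0.13 without wild type replicate 3.

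Rasgrp2 encodes CalDAG-GEFI, the calcium-driven activator of Rap1 in platelets, and it spread widely over the mutant samples on all its probe sets. The brightest Rasgrp2 probe set read 8.02, 7.57 and 6.61 in mutant samples 1 to 3, against 7.13, 7.03 and 6.98 in wild type samples 1 to 3. Mutant samples 1 and 2 were above every wild type sample and mutant sample 3 was below every one on this probe set. The mutant SD of the 3 Rasgrp2 probe sets was 0.52 to 0.83, against 0.069 to 0.077 in wild type samples (n = 3 each). Their log2 differences were 0.36, 0.06 and 0.39, and without mutant replicate 1 they were 0.043, -0.30 and 0.11. Without mutant replicate 3 they were 0.75, 0.51 and 0.62, so their size and, for 1 probe set, their sign rested on single mutant arrays.

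Rapgef3, the cyclic AMP sensor Epac1, was high on a single mutant array. The probe set that showed this most read 4.92, 3.19 and 3.62 in mutant samples 1 to 3, against 3.62, 3.17 and 3.43 in wild type samples 1 to 3. A second read 4.28, 3.03 and 3.26 in mutant samples, against 3.26, 3.09 and 3.25 in wild type samples. Without mutant replicate 1 the differences of these probe sets were -0.0032 and -0.057, without mutant replicate 2 they were 0.86 and 0.57, and with all arrays they were 0.50 and 0.32. The brightest of the 4 Rapgef3 probe sets did not single out that array, with 4.65 to 4.77 in mutant and 4.38 to 4.73 in wild type samples.

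Markers of several other marrow cell types moved over the mutant arrays with Rap1b and Rasgrp2. The B cell mean, given above, did not and was lowest on mutant array 1, and neither did the T cell mean, given below. The neutrophil mean was 11.64, 10.34 and 9.82 on mutant arrays 1, 2 and 3, against 10.83 to 10.97 on wild type arrays, with 9 of 9 markers measured and 0 dim. The mean of 5 eosinophil, basophil and mast cell markers was 8.18, 6.54 and 5.49 on mutant arrays 1 to 3, against 6.61 to 6.83 on wild type arrays. These means had the same order over the mutant arrays as Rap1b and Rasgrp2, with array 1 highest and array 3 lowest. The mean of 9 macrophage markers was 6.40, 6.31 and 5.77 on the mutant arrays, against 6.33 to 6.47 on wild type arrays. The mean of 7 of 10 megakaryocyte and platelet markers was 5.46, 5.18 and 5.13, against 4.75 to 4.82 (exact permutation p = 0.1, two-sided, the smallest that 3 arrays against 3 allow), with Ppbp and Clec1b dim. Vwf, the von Willebrand factor gene, rose by 1.48 (adjusted p = 0.015, limma) and was the 1 called gene of the list, with 5.44, 6.10 and 6.12 on mutant arrays 1 to 3, against 4.36 to 4.48 on wild type arrays. Pf4, a defining platelet gene, was high on mutant array 1 only and read 9.02 there, 7.61 and 7.63 on mutant arrays 2 and 3, against 7.63 to 7.66 in wild type. Ppbp, dim by its mean over all arrays, read 5.44, 3.12 and 2.77 on mutant arrays 1 to 3, against 2.78 to 2.96 in wild type. Gp9 was lowest on mutant array 1, with 6.60, 7.11 and 7.44 on mutant arrays 1 to 3, against 6.65 to 6.95 in wild type. Clec1b, Gp1bb and Treml1 differed by 0.23, 0.0028 and -0.0098, so the list mean did not stand for all its genes. The mean of 3 T cell markers was 4.19 to 4.22 on mutant and 4.46 to 4.58 on wild type arrays (exact permutation p = 0.1, two-sided, again the smallest possible). Cd3g was dim, and Cd3e and Cd3d had low mean levels of 5.05 and 4.65 over the arrays. The part of these cells in the member values was not tested. Relative to the wild type mean, Rap1gap was at -1.62, -1.59 and -1.81 on mutant arrays 1, 2 and 3.

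**Figure D3:**
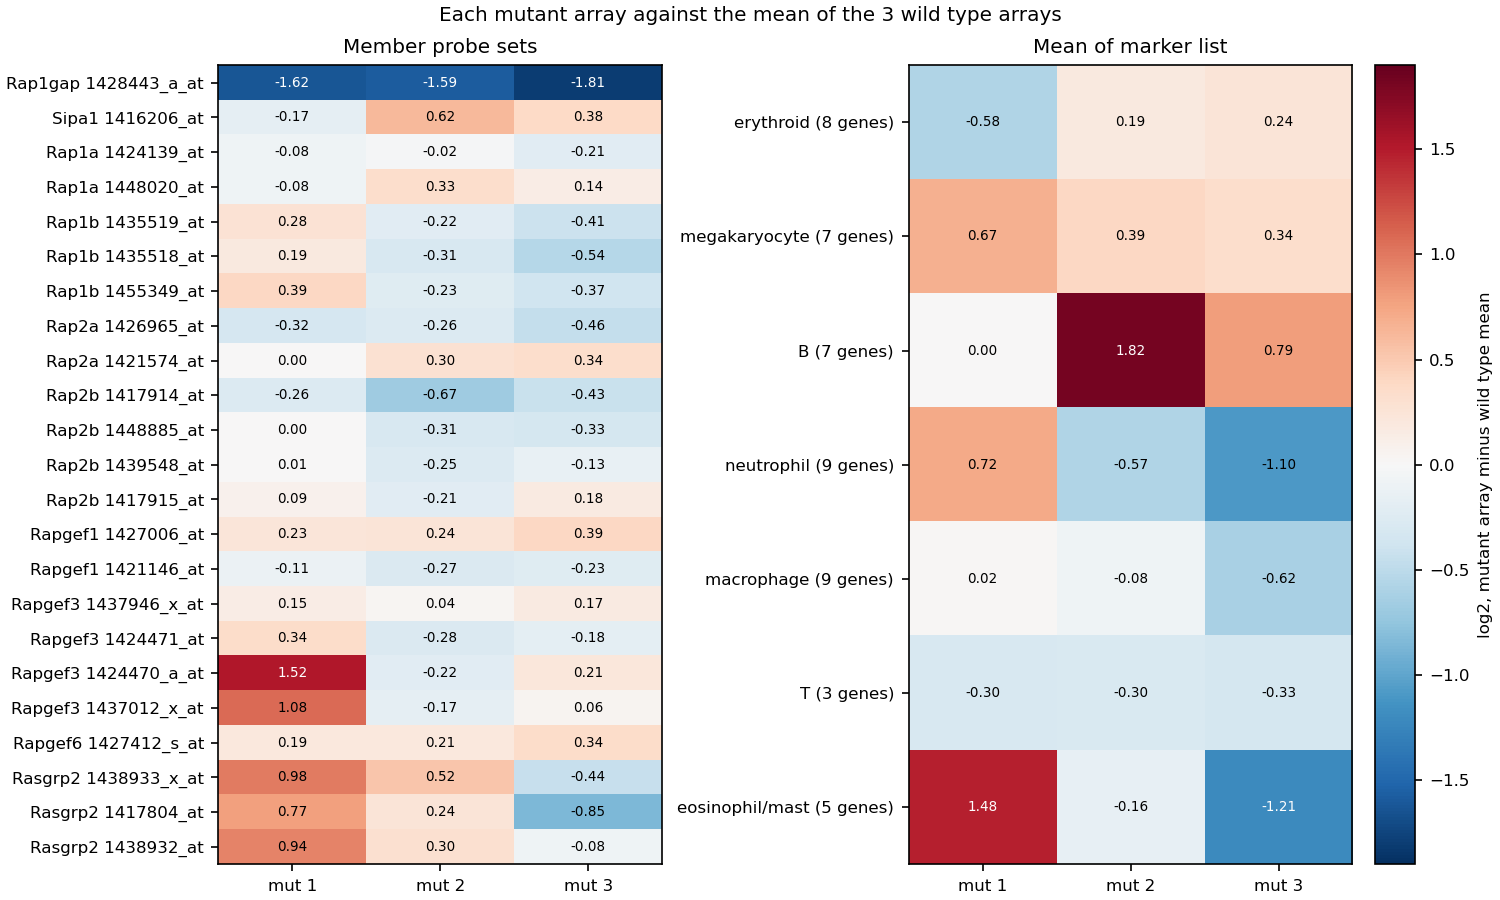
Log2 value of each mutant array minus the mean of the 3 wild type arrays, for the member probe sets (left) and for the mean of each marker list (right), with the value printed in each cell. Rap1gap is low on all 3 arrays, while Rap1b, Rasgrp2 and the neutrophil and eosinophil/mast lists are highest on mutant array 1 and lowest on mutant array 3.

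In the fit over all probe sets, 1 of the 23 member probe sets, that of Rap1gap, had an adjusted p under 0.05 (limma, Benjamini-Hochberg over 22626 probe sets), and 2.33% of all probe sets did. It was 1 lower and 0 higher, against 1.39% of all probe sets lower and 0.941% higher. Groups did not overlap for 6 of the 23, of which 4 were lower and 2 higher, against 26.1% of all probe sets (14.7% lower and 11.4% higher), and 4 had an unadjusted p under 0.05, against 19.1%. Because this contrast chose Rap1gap, nothing is read from these counts. Of the 23 differences 11 were below 0 and 12 above, with a median of 0.018, against -0.013 over all probe sets. By role, 8 of 11 GTPase probe sets had a difference below 0 (median -0.12) and 8 of 10 exchange factor probe sets had one above 0 (median 0.27). Several of these probe sets are of the same gene, and 8 of the 23 member probe sets changed sign under at least 1 setting. The share of either sign over all probe sets was not counted, so nothing is read from the counts by role. The mutant SD exceeded the wild type SD for 19 of the 23 probe sets, and for 76.7% of all probe sets. The median SD of the members was 0.21 in mutant and 0.079 in wild type samples, against 0.18 and 0.090 over all probe sets. A filter at the median of all values would keep 15 of the 23 member probe sets, and 3 were dim.

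Of 75 further genes of the Rap1 pathway, 59 were measured and the other 16 were not analysed here. Each was represented by its probe set with the highest mean. Of the 59 genes 1 rose and 0 fell (6 had an unadjusted p under 0.05, limma), and 1.52% of all 12393 genes were called, 0.863% higher and 0.654% lower. An unadjusted p under 0.05 was found for 17.5% of all genes. Groups did not overlap for 14 of the 59 (8 lower, 6 higher), against 24.7% of all genes (12.7% lower, 12% higher). Their median log2 difference was 0.0072, against -0.0044 over all genes.

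The gene that rose was Arap3, which encodes an effector that binds active Rap. Arap3 read 6.94, 6.19 and 6.82 in mutant samples 1 to 3, against 5.14, 5.20 and 5.59 in wild type samples 1 to 3. All mutant values lay above all wild type values. The log2 difference was 1.34 ± 0.22 (SE, adjusted p = 0.031, limma, n = 3 each), and the call was lost without any 1 of the wild type replicates (differences of 1.26 to 1.48). A second, dimmer Arap3 probe set differed by 0.13 and did not pass, and the mean of both, at 0.74, did not pass either (adjusted p = 0.060, limma). The suffix of the brighter probe set, _s_at, means that its probes can match transcripts of more than 1 gene. The Rapgef6 probe set above carries the same suffix, as do the brightest Fermt3 probe set and the Sh3d19 and Csnk2a1 probe sets nearest to Rap1gap, given below. The suffix _x_at also marks probes that can match other transcripts. It is carried by the brightest Rasgrp2, Rapgef3 and Rap2c probe sets and by the dimmest Rapgef3 probe set, which read 4.28 on mutant array 1.

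Talin and kindlin, which bind integrin tails at the end of the Rap1 pathway, came next among 18 effectors. Tln1 read 8.67, 8.58 and 8.67 in mutant samples 1 to 3, against 8.26, 8.30 and 8.15 in wild type samples 1 to 3, a difference of 0.40 ± 0.092 (SE, adjusted p = 0.072, limma). Fermt3, the kindlin of blood cells, read 11.89, 11.91 and 11.79 in mutant samples 1 to 3, against 11.48, 11.44 and 11.49 in wild type samples 1 to 3. Its difference was 0.39 ± 0.088 (adjusted p = 0.070, limma), but its other probe sets differed by -0.24 and 0.05, and the mean of all 3 by 0.067. The groups did not overlap for Tln1 or the brightest Fermt3 probe set, although neither passed the threshold. Rasip1, an endothelial effector, differed by -0.17 (adjusted p = 0.55, limma). The median of the effector list was 0.00025, with 9 genes above and 9 below 0. Outside the rule for naming genes, a dimmer probe set of Map4k4, a Rap2-regulated kinase, rose by 0.78 (adjusted p = 0.0097, limma), whereas the brightest Map4k4 probe set differed by -0.11.

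**Figure D4:**
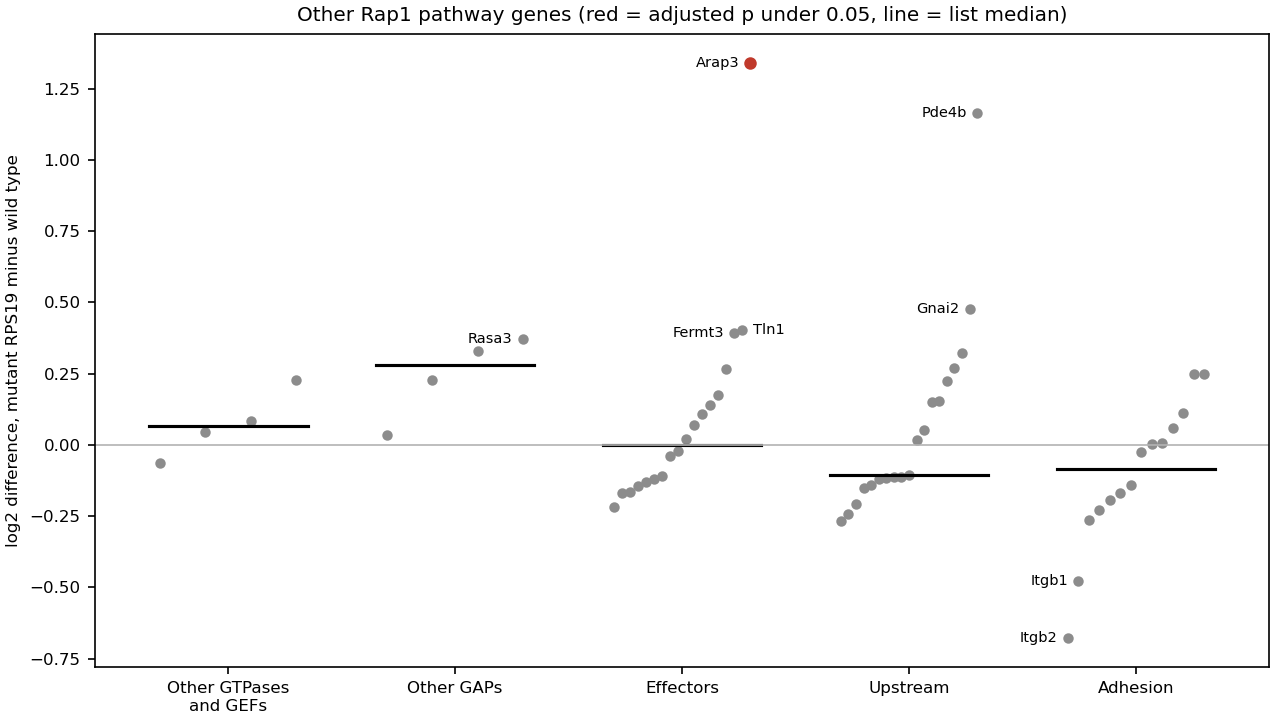
Log2 difference, mutant RPS19 minus wild type, of 59 further Rap1 pathway genes in 5 lists, with 1 point per gene, the list median as a line and red for an adjusted p under 0.05. Only Arap3, at 1.34, is red among these 59 genes.

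None of the 4 other measured GTPase-activating proteins passed the test. Rasa3, which acts on Ras and Rap1 and whose loss disturbs red cell and platelet production in mice, read 7.63, 7.30 and 6.93 in mutant samples 1 to 3, against 6.96, 6.91 and 6.88 in wild type samples 1 to 3. The groups overlapped, and the difference was 0.37 ± 0.17 (adjusted p = 0.29, limma). Rasa4 and Rasal1 differed by 0.33 and 0.23 (adjusted p = 0.59 and 0.34, limma), and all 4 differences were above 0, with a median of 0.28. Single arrays moved these values, since Rasa4 was at 0.037 without mutant replicate 1 and 0.66 without mutant replicate 3, and Rasa3 at 0.20 and 0.55. The 4 other GTPases and exchange factors had a median of 0.065, with Rap2c at -0.063, Rasgrp4 at 0.083 and Rasgrp1 at 0.23 (adjusted p = 0.82, 0.71 and 0.35, limma). Values of these lists overlapped, since the GTPase-activating protein gene Sipa1l2 differed by 0.034. The dimmer Rap2c probe sets differed by -0.19, with groups that did not overlap, and by 0.097.

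Of 19 genes upstream of Rap, 0 passed the test and 1 had an unadjusted p under 0.05 (limma). That gene was Gnai2, an inhibitory G protein subunit, which read 10.33, 10.15 and 9.84 in mutant samples 1 to 3, against 9.64, 9.68 and 9.56 in wild type samples 1 to 3. The mutant values of Gnai2 were all higher, by 0.48 ± 0.14 on average (SE, adjusted p = 0.12, limma), and a second probe set differed by 0.29. The scaffold gene Magi1 differed by -0.27 and the protein kinase A subunit gene Prkaca by -0.24 (adjusted p = 0.27 and 0.28, limma). All 3 Magi1 probe sets were dim, the others differed by 0.32, with groups that did not overlap, and by -0.13, and the mean of the 3 differed by -0.025.

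Of 14 adhesion genes 0 passed the test (2 had an unadjusted p under 0.05, limma). Itgb1, the beta 1 integrin through which erythroblasts bind fibronectin and macrophages, read 7.23, 7.37 and 7.64 in mutant samples 1 to 3, against 7.99, 7.75 and 7.93 in wild type samples 1 to 3. The groups of Itgb1 did not overlap on this brightest probe set, and the difference was -0.48 ± 0.13 (SE, adjusted p = 0.11, limma). The other 5 Itgb1 probe sets, of which 3 were dim, differed by -0.28 to 0.15, and the mean of all 6 by -0.13 (adjusted p = 0.55, limma). Itgb2, the leukocyte beta 2 integrin, differed by -0.68 ± 0.28 (adjusted p = 0.25, limma), with 6.72 on mutant array 3 and 7.84 and 7.79 on mutant arrays 1 and 2, against 8.10 to 8.18 on wild type arrays. Mutant array 3 was also lowest in the neutrophil and macrophage means given above, and their part in the Itgb2 value was not tested. Without mutant replicate 3 the Itgb2 difference was -0.31. Cd47, a surface protein of red cells, differed by -0.26 on its brightest probe set (adjusted p = 0.32, limma) and by 0.99 on its dimmest (adjusted p = 0.011, limma), with -0.063 and -0.0033 on those between.

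The genes whose signal over the 6 arrays ran closest to that of Rap1gap were found by the root mean square difference between centred log2 values, over 20379 probe sets with 1 symbol. They were the kinase gene Dyrk1a (0.096), the immunoglobulin segment Igkv6-14 (0.12), the adaptor gene Sh3d19 (0.12), Rras2, a small GTPase of the Ras family (0.14), and Csnk2a1, the catalytic subunit of casein kinase 2 (0.14). For comparison, Rap1gap deviated from its own mean by 0.84. Rras2 read 4.50, 4.98 and 4.47 in mutant samples 1 to 3, against 6.45, 6.39 and 6.17 in wild type samples 1 to 3, and its second probe set differed by -1.46. The nearest probe set of Dyrk1a differed by -1.55, but its other probe sets differed by -0.49 and 0.063. Likewise the nearest Sh3d19 probe set differed by -1.62 and its other probe sets by -0.48, -0.43 and 0.032. All 6 Csnk2a1 probe sets had differences below 0, from -1.74 to -0.33. These genes were picked for a likeness that mainly reflects the gap between the groups, so it is a description of 6 arrays. Ranking by Pearson correlation gave a list that shared 0 of the 5 genes.

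**Figure D5:**
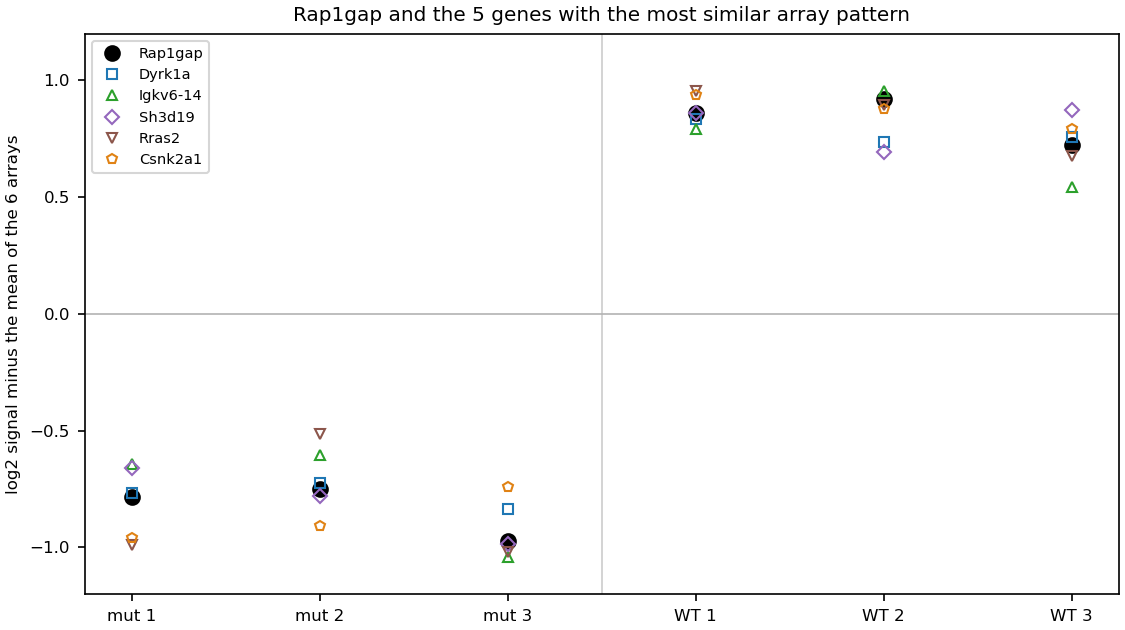
Log2 signal minus the mean of the 6 arrays for Rap1gap (black) and the 5 genes with the smallest root mean square difference to it, on mutant RPS19 arrays (left) and wild type arrays (right). All 6 genes lie below 0 on the mutant arrays and above 0 on the wild type arrays.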

How the data were processed

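The deposited values are log2 signals of 22690 probe sets on 6 arrays, deposited by the authors as RMA output, with GCOS and Expression Console named in the submitters' processing notes. RMA corrects background, quantile normalises and summarises probes, which compresses differences of dim probe sets. The sources used here state neither versions nor the arrays that entered 1 RMA run. After 64 control probe sets were left out, 22626 were tested with limma 3.58.1 in R 4.3.3 (lmFit, eBayes, two-sided, no covariates, Benjamini-Hochberg, called at an adjusted p under 0.05). The 2016 platform annotation gave 1 symbol to 20380 probe sets, several to 691 and none to 1555, and Entrez identifiers changed 0 symbols. Further pathway genes and markers were represented by the probe set with the highest mean. Named were all members, called pathway genes and up to 3 others per list by lowest p, and the 5 genes most like Rap1gap. The members and lists were chosen with earlier results of these data known. Marker means were compared by an exact permutation test. The fit was tested on simulated data. Alternatives covered normalisation, variance prior, array weights, a filter at 5.36, the replicate block, 1 value per gene, the threshold and leaving out each array. Figures and summaries used Python 3.11.15. The number of arrays limits the precision.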

Additional observations from a re-analysis of the deposited data

Results flagged for a closer look

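Control probe sets, which no comparison of the member genes used, differed between the groups. The mean of 24 probe sets for spiked polyadenylated control RNAs was 4.07 higher on the log2 scale on mutant arrays, with 11.58, 13.43 and 13.47 in mutant samples 1 to 3, against 8.74 to 8.77 in wild type samples (exact permutation p = 0.1, two-sided, the smallest possible). Its part in the member values was not tested.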

How the results depend on the processing

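The Rap1gap difference ran from -1.73 to -1.60 over 14 alternative fits and was called in each of them. Those fits reuse the arrays that chose Rap1gap, so nothing is read from how often it was called. Of the 23 member probe sets 15 kept the sign of their difference under all settings run, and the 8 others changed sign under at least 1 setting, among them probe sets of Rap1a, Rap1b, Rap2b, Rapgef3 and Rasgrp2. Array weights called 2 member probe sets lower, Rap1gap and Rap2b. Leaving out 1 array in turn gave 1 to 3 lower and 0 to 1 higher, with Rap2b, Rap1b and Sipa1 added only without mutant replicate 1. Among the further pathway genes, 2 were called higher with quantile normalisation repeated without controls, with a trended variance prior and with the filter on dim probe sets, 4 with array weights, 3 at an adjusted p under 0.10 and 0 with 1 probe set per gene or the mean per gene in the fit (6 at an unadjusted p under 0.05 in each, limma). Leaving out 1 array gave 0 to 4 higher and 0 to 1 lower. Cd47 turned to 0.17 on the mean of its probe sets and Rap2c to 0.016 without mutant replicate 3 (-0.17 to 0.016 leaving out 1 array in turn). Over all probe sets the 315 lower and 213 higher calls became 1381 and 1286 with array weights, 793 and 593 at an adjusted p under 0.10, 19 and 22 with 1 probe set per gene and 28 and 19 with the mean per gene. Leaving out 1 array gave 24 to 1192 lower and 12 to 1352 higher, the highest counts without mutant replicate 1 and the lowest without a wild type replicate. The cause was not tested. With the replicate number as a block, 64 were lower and 48 higher. The labels of same-numbered samples share only the number. Their deviations correlated at 0.03 to 0.06, although each sample correlated best with its own number, a hint from the data and not the design. Ranking by Pearson correlation kept 0 of the 5 genes most like Rap1gap.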

Other observations

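Genes of cyclic AMP turnover, which feeds the exchange factor Rapgef3, were chosen here after their values were seen. Pde4b, a cyclic AMP phosphodiesterase, read 7.36, 5.60 and 4.99 in mutant samples 1 to 3, against 4.92, 4.87 and 4.67 in wild type samples 1 to 3, a log2 difference of 1.16 (adjusted p = 0.29, limma). Its second probe set differed by 0.77, with groups that overlapped. Over the mutant arrays Pde4b had the same order as the neutrophil mean and the eosinophil, basophil and mast cell mean, and their part was not tested. Adcy6, an adenylyl cyclase, read 7.21, 8.17 and 8.25 in mutant samples 1 to 3, against 7.58, 7.56 and 7.53 in wild type samples 1 to 3 (difference 0.32, adjusted p = 0.56, limma). The other listed adenylyl cyclase genes, Adcy3, Adcy7 and Adcy9, differed by -0.12, 0.053 and 0.27 on their brightest probe sets. Without mutant replicate 1 the Adcy6 difference was 0.65 (adjusted p = 0.0073, limma), and it did not pass in the other 13 alternative fits. Adcy6 was thus low on mutant array 1, the array on which the erythroid marker mean was also lowest, at 9.86 against 10.63 and 10.68 on the other mutant arrays, and its part was not tested.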
